A study of Mus musculus with 5 samples.

Results

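The regions described here are the peaks of IRF4 and IRF8 in mouse B cells that lay away from gene starts and held an ETS-IRF composite element (EICE). An interval was taken when its centre was more than 1000 bp from every transcription start site (TSS) of a protein-coding gene, and when the bases within 100 bp of its centre held the canonical element on either strand. The element is a core of 4 bases for an ETS factor, a spacer of 2 bases and an IRF half-site of 4 bases, all read in the same direction. Of the 5590 intervals in 5 deposited lists, 767 met this rule. They fell at 479 separate places in the genome once overlapping intervals of different lists were joined.

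IRF4 and IRF8 belong to the interferon regulatory factor family. On their own both bind the EICE weakly, and they bind it well when paired with an ETS partner, PU.1 or Spi-B, which holds the ETS core and contacts the IRF protein. In B cells such elements are known from enhancers of the immunoglobulin light chain genes. IRF4 is also known to bind with BATF and JUN factors at sites that join an AP-1 motif to an IRF half-site, and both factors bind the interferon-stimulated response element (ISRE), a pair of IRF half-sites. IRF8 is a factor of germinal centre B cells, the cells in which antibody genes mutate, while high IRF4 is needed for plasma cells.

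All cells came from wild type C57BL/6 mice. Naive splenic B cells were cultured with LPS, a bacterial cell wall component, at 10 ug/ml, and chromatin immunoprecipitation with sequencing (ChIP-seq) was done with an antibody against IRF4 (M-17) or IRF8 (C-19) after 48 h and after 72 h. Germinal centre (GC) B cells were sorted 13 days after immunisation with NP-KLH, and a service company ran ChIP-seq of IRF8 on them. There was 1 library for each of the 5 groups, and differences between groups could not be set against replicate error. The LPS libraries held 3065426 to 4375858 tags, of which 0.18% (IRF8 48 h) to 0.82% (IRF4 48 h) were in peaks per the file headers. For IRF8 at 72 h the header names a second replicate as the source of the tags, and whether another library exists is not given in the sources used here. The GC list gives positions only, from another peak caller and with wider intervals (median 1218.5 bp among its members, against 500 bp), so its depth is unknown and caller and cell type cannot be told apart.

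Windows around 3 members are printed to show the element in place, in mm9 (NCBIM37), from the + strand, reaching 100 bp to either side of the peak centre, with the element in capitals. They are the place with the most IRF8 tags, in an intron of Pax5 (chr4:44683956-44684156), the second highest single-copy IRF4 member at 48 h (an intron of Bach2, chr4:32445690-32445890, where the element lies on the - strand and reads reversed), and the place 8958 bp from the immunoglobulin kappa constant gene Igkc (chr6:70685609-70685809). The last is the region of the kappa 3′ enhancer, a textbook site of PU.1 with IRF4.
Pax5: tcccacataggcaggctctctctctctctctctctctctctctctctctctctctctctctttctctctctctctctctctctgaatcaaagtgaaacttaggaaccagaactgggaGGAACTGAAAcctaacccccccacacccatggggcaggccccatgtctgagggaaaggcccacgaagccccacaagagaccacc
Bach2: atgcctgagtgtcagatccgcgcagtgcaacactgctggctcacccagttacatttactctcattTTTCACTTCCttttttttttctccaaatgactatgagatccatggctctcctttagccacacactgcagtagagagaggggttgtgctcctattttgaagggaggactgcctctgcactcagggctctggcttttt
Igkc: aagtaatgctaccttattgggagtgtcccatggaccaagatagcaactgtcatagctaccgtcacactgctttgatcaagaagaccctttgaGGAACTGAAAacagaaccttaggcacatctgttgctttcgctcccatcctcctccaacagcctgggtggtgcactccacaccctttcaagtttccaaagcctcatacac
The Pax5 window also holds a long run of alternating ct, a simple repeat, yet its median word of 24 bases occurs once in the genome.

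The element was searched as GGAANNGAAA on both strands. It was present in 209 of 1420 distal IRF4 peaks at 48 h (14.7%, 95% exact binomial interval 12.9 to 16.7) and in 199 of 754 at 72 h (26.4%, 23.3 to 29.7). For IRF8 it was in 41 of 203 distal peaks at 48 h (20.2%, 14.9 to 26.4), in 206 of 944 at 72 h (21.8%, 19.2 to 24.6) and in 112 of 1344 distal intervals of the GC list (8.33%, 6.91 to 9.94). These intervals cover counting error only. Windows of the same length 2000 bp to either side of the distal centres held the element in 2.4%, 1.73%, 2.0%, 2.01% and 1.94% of cases in that list order, and 2.2% of the 12333621 complete distal windows of the genome held it. Promoter intervals of the same lists held it in 13.9%, 21.2%, 13.0%, 24.3% and 4.56% of cases. The members just beyond the limit of 1000 bp were at Alg9 (1005 bp from a TSS), Tcp1 (1006 bp) and Irf5 (1017 bp).

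Matches lay close to the centre of LPS peaks. Counted per 100 distal intervals and 50 bp, matches within 50 bp of the centre came to 5.7 and 10.3 for IRF4 at 48 h and 72 h and to 9.11 and 9.48 for IRF8, where the genome gives 0.646. From 100 to 250 bp away, outside the window that chose the members, they came to 0.869, 0.906, 0.657 and 0.618. The median distance from the centre to the element among members was 20.5 bp and 23.5 bp for IRF4 and 16.5 bp at both times for IRF8. In the GC list, whose centres are midpoints of intervals and not summits, this distance was 46 bp, and the density was 2.94 within 50 bp and 1.51 from 100 to 250 bp.

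**Figure D1:**
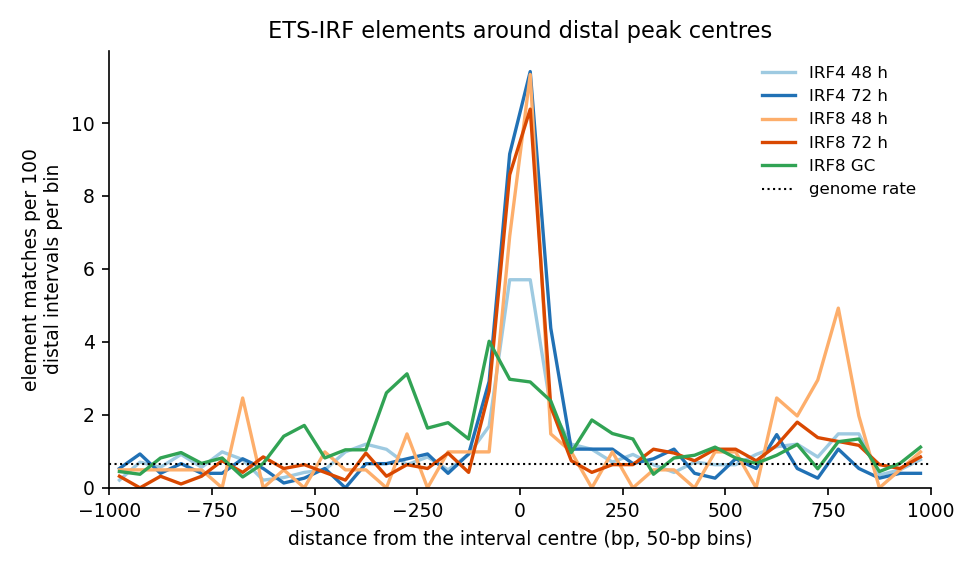
Matches of the element per 100 distal intervals in each 50-bp bin (y) against the distance from the interval centre in bp (x), 1 line per list, with the genome rate dotted. All LPS lines peak within 50 bp of the centre and the GC line is lower and broader; in the rise of the IRF8 48 h line between 600 and 800 bp, 16 of 25 matches belong to 1 interval.

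The spacer was left free by the rule, and the bases found there differed from those of other matches. The member windows held 556 different elements, and the genome 342796 matches. The 556 are called bound elements here because they lie in member windows, and binding at each match was not measured. The spacer GT was in 28.1% of bound elements and 9.76% of genome matches, and CT in 24.3% and 3.62%. AG, the most common spacer in the genome at 23.7%, was in 13.1% of bound elements. The lists differed in it: in the GC list AG was in 31.7% of elements. A window held up to 11 elements there and up to 14 in the IRF8 72 h list, and each element counts in these shares. In the LPS lists AG was in 1.86% and 1.93% for IRF4 at 48 h and 72 h and 0% and 7.62% for IRF8, and counted once per place it was nearest the centre at 22 of 479 places (4.59%, 2.9 to 6.87). AA was in 14.6% of the genome matches and 3.96% of the bound ones. CC was rare in both, with 14 bound elements of 888 matches. Expressed per 10000 genome matches, that made CC the spacer most often found in a member window at 157.7, ahead of CT at 108.7 and GT at 46.6. Matches 300 to 1000 bp from distal centres held CT in 4.65% and GT in 5.78% of 709 cases.

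To show the forms, 30 bases around the element of several members are given 5′ to 3′ in the direction of the element, mm9, with the element in capitals. The first 3 hold the spacer CT, the next 3 GT, the next 3 CC, and the last 2 rarer spacers, of which Etv6 is in the GC list alone.
Il15 (chr8:84940483-84940983, 13.6 kb upstream): gcccctcagaGGAACTGAAAcctcccaaga
Psmb9 (chr17:34317418-34317918, 2.83 kb downstream): tcagaaagcaGGAACTGAAAgtggccagtg
Grb2 (chr11:115554019-115554519, intron): aagacatgcaGGAACTGAAAgttcattctc
Ripk2 (chr4:16086639-16087139, intron): aatgaattcaGGAAGTGAAAgtaagactgt
Plcg2 (chr8:119999652-120000152, 22.3 kb upstream): ccacagacagGGAAGTGAAAgttagggcgg
Tnfrsf13c (chr15:82049227-82049727, 5.29 kb downstream): ctgccaggcaGGAAGTGAAAacggcctgca
Irf4 (chr13:30820027-30820527, 20.8 kb upstream): ccgcctttgaGGAACCGAAAgagctgcagg
Inpp5d (chr1:89547222-89547722, intron): agcctttagaGGAACCGAAAgttacctctg
Sema4b (chr7:87324644-87325144, 6.83 kb upstream): tttgccatgtGGAACCGAAAggcagagagg
Gm4968 (chr6:127195810-127196310, 12.3 kb downstream): tcgtcttgatGGAATGGAAActgaaagtga
Etv6 (chr6:134170204-134171281, intron, GC list): gcctaagaggGGAAACGAAAgttagaaagt
The bases beside the element differed from the genome too. The second base before it was G in 41.9% of bound elements against 17.4% of genome matches, and the first base after it was T in 4.5% against 14.9%. The first base after the element was G in 76.2% of the 42 IRF8 elements at 48 h and 59.6% at 72 h. It was G in 47.2% in the GC list, in 45.1% and 44.4% for IRF4, and in 41.4% of genome matches.

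The spacers were next compared between places called for IRF4 and for IRF8 in LPS culture. Of the 479 member places, 186 had an IRF4 peak and no IRF8 peak in LPS culture, 107 had IRF8 without IRF4, 119 had both, and 67 were in the GC list alone. These class sizes are not given for the 2973 distal places without the element, so alone they do not set members apart. Places in the IRF8 72 h list alone were 14.41% of member places and 16.18% of the others. For the IRF4 48 h list alone the shares were 11.9% and 24.86%, and for the IRF4 72 h list alone 9.186% and 5.113%. Places in both IRF4 lists and the IRF8 72 h list, and in no other, were 6.681% and 1.446%. Where IRF4 was called without IRF8 the spacer nearest the centre was CT at 85 of 186 places (45.7%, 95% interval 38.4 to 53.2) and GT at 45 (24.2%, 18.2 to 31). Where IRF8 was called without IRF4 it was CT at 8 of 107 places (7.48%, 3.28 to 14.2) and GT at 58 (54.2%, 44.3 to 63.9). The intervals of these shares do not overlap between the factors. Places with both factors lay between for both spacers, with CT at 38 of 119 (31.9%, 23.7 to 41.1) and GT at 39 (32.8%, 24.5 to 42.0). The spacer AG was at 0 of the places with both factors (95% interval 0 to 3.05%), where 3 counts would make 2.52%.

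The same order was seen at 72 h alone, where the lists had similar lengths. CT was at 57 of 127 places with IRF4 and no IRF8 (44.9%, 36.1 to 54.0) and at 17 of 131 with IRF8 and no IRF4 (13.0%, 7.75 to 20.0). Leaving out repeated sequence gave 45.9% and 7.77%, and leaving out places with an ISRE gave 44.8% and 7.07%. These settings were chosen after the data were seen, and the shares are a description with no test between them. Tags at members are given by spacer as well. In the IRF8 72 h list the median was 35.9 normalised tags for 44 CT members and 35.9 for 87 GT members, and for IRF4 at 48 h it was 38.3 for both. Among places found in both 72 h lists, the median log2 ratio of IRF4 to IRF8 tags was 0.03 at 28 CT places (interval of the median -0.19 to 0.19) and -0.16 at 25 GT places (-0.40 to 0.25), so the intervals overlap.

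Motifs of other partners were looked for in the same windows, on both strands; a match is a description and not a site or a cause. The AP-1 motif, the site of FOS, JUN and BATF factors, was searched as TGACTCA, and 3.13% of distal genome windows hold it. It was in 19 of 209 members of the IRF4 48 h list (9.09%), against 32.2% of the distal peaks without the element. At 72 h it was in 7.04% of IRF4 members and 24.9% of the other distal peaks. For IRF8 the shares were 2.44% and 13.6% at 48 h, 4.85% and 8.81% at 72 h, and 1.79% and 7.06% in the GC list, so the share was lower among members in all 5 lists.

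The ISRE was searched as GAAANNGAAA, which 3.34% of distal genome windows hold and which may overlap an EICE. In LPS culture it was in 3.35% of IRF4 members at 48 h and 6.03% at 72 h, and in 4.88% and 5.83% of IRF8 members, with 4.87%, 7.21%, 6.17% and 11% of the other distal peaks in that order. In the GC list it was in 39 of 112 members (34.8%) and 13.0% of the others, and it overlapped the element in 19 members. Repeated sequence, where the median word of 24 bases occurs more than once in the genome, was the window of 2 and 0 IRF4 members at 48 h and 72 h, of 0 and 6 IRF8 members, and of 20 GC members (17.9%). It was the window of 5.0%, 8.47%, 25.3%, 15.7% and 9.33% of the other distal peaks in the same list order. The part of repeated sequence in the GC values, and in the comparisons of members with other peaks, was not tested.

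The height of the LPS peaks is given as the normalised tag count, the tags in a peak scaled to 10000000 per library. In the IRF4 48 h list members ran from 26.5 to 135.4 with a median of 41.2, and the other distal peaks had a median of 38.3. At 72 h the IRF4 members ran from 21.2 to 92.9 (median 31.9, others 29.2). The IRF8 members ran from 22.9 to 45.7 at 48 h (median 25.1, others 27.4) and from 22.8 to 104.4 at 72 h (median 35.9, others 29.4). Members were thus a little higher than the rest in 3 lists and a little lower for IRF8 at 48 h, with wide overlap in all 4. No member came near the highest distal peaks without the element, which reached 1268 to 1762 tags. The highest IRF4 place of this kind had nearly equal counts in both libraries, 1595.6 at 48 h and 1540.1 at 72 h. Whether such heights reflect binding was not tested. Of the 236 distal IRF8 peaks with the most tags at 72 h 33.9% were members, against 13.1% of the 236 with the fewest. The same shares were 28.2% and 18.1% for IRF4 at 72 h (188 peaks each), and 16.9% and 12.7% for IRF4 at 48 h (355 each). For IRF8 at 48 h the order was turned, with 10.0% and 28% of 50 peaks each. That library had the smallest share of its tags in peaks. A member there rested on a median of 11 tags, as did a member for IRF8 at 72 h. In the IRF8 48 h list, repeated sequence made up 41 of 162 distal peaks without the element (25.3%) and 0 members. Its part in the order was not tested.

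**Figure D2:**
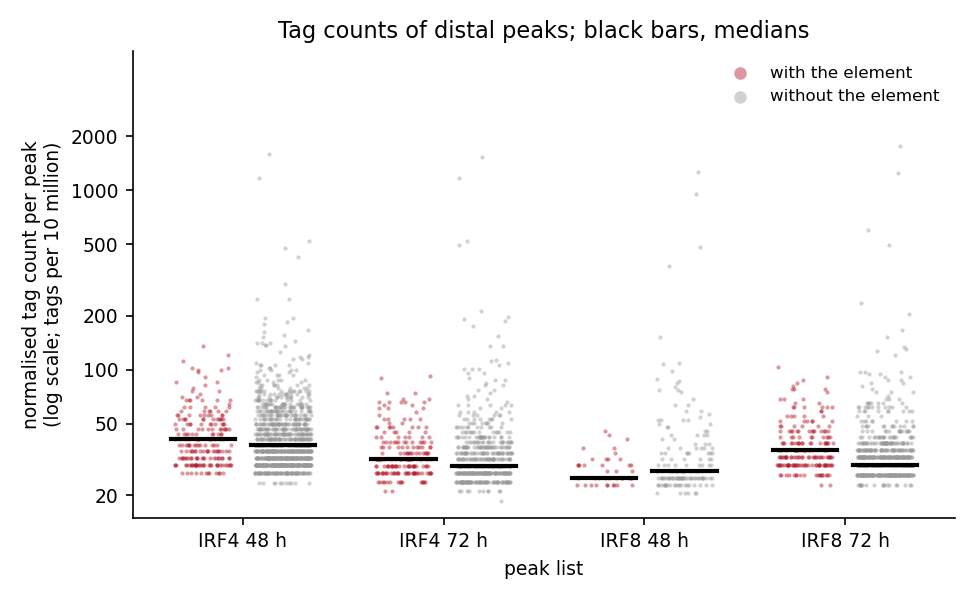
Normalised tag count of every distal peak (y, log scale, tags per 10000000) in the 4 LPS lists (x), with the element in red and without it in grey; black bars are medians. The 2 clouds overlap in each list, the red medians are 41.2, 31.9, 25.1 and 35.9, and the highest points are all grey.

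The highest single-copy members of each list are named next, with exact Poisson intervals. In the IRF4 48 h list they were Gm9034, a predicted gene (135.4, 99.1 to 180.6), the Bach2 intron (120.7, 86.6 to 163.7), Antxr2 (111.9), Srebf2 (103.0) and Il15 (103.0). Bach2 is a transcriptional repressor that opposes the plasma cell fate, Srebf2 encodes a regulator of cholesterol synthesis, and Il15 a cytokine for lymphocytes. The windows at Srebf2 and Il15 also hold an AP-1 motif. At 72 h the IRF4 list was led by the Pax5 intron (92.9, 64.7 to 129.3), Setbp1 (90.3), Rnls (74.3), Nup160 (74.3), and Gm9034 and C330018D20Rik with the same value (69.0). Pax5 is the factor that sets B cell identity. The IRF8 list at 48 h was led by Ndst1 (45.7, 27.9 to 70.6), Ascc1 (43.4), 4931440P22Rik (41.1), Nup160 (36.6) and Gm4968 (36.6), all within each other's intervals. At 72 h it was led by Pax5 (104.4, 71.4 to 147.4), Gm4968 (91.3), Pamr1 (88.1), Ifnar2 (81.6), and Snx29 and Ndst1 with the same value (78.3). Ifnar2 is a chain of the type I interferon receptor. The named gene is the one with the nearest coding TSS, which for Antxr2 and Rnls is over 200 kb away, and no file here links a place to the gene it acts on.

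Member places recurred between lists more than other distal places did. Of the 479 member places 238 (49.7%) were in 2 or more lists, against 557 of 2973 distal places without the element (18.7%). All 5 lists shared 8 member places (1.67%) and 7 of the others (0.235%). A place in more lists had more windows searched for the element, so these shares of places follow in part from the rule. By list, 125 of 209 IRF4 48 h members (59.8%, 52.8 to 66.5) were also in the IRF4 72 h list, against 29.5% (26.9 to 32.1) of its other distal peaks. Seen from 72 h the shares were alike, 63.3% of members and 64.0% of the others. Of the IRF8 48 h members 33 of 41 (80.5%, 65.1 to 91.2) were in the IRF8 72 h list, with 51.2% of the others. In the other direction the shares were 17.5% and 10.7%, since the 72 h list is longer.

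Overlap of the factors was counted in the same way. At 72 h 78 of 199 IRF4 members (39.2%, 32.4 to 46.4) had an IRF8 peak, against 25.6% (22.0 to 29.4) of the other distal IRF4 peaks. Of the 206 IRF8 members 79 (38.3%, 31.7 to 45.4) had an IRF4 peak, against 19.1% (16.3 to 22.1) of the others. At 48 h the intervals of members and others overlapped in both directions. Of the IRF4 members 12% (7.89 to 17.2) had an IRF8 peak, against 6.77% (5.42 to 8.34) of the others, and of the IRF8 members 56.1% (39.8 to 71.5) had an IRF4 peak, against 51.9% (43.9 to 59.8). These shares are of lists with their own thresholds, and no test was made between them.

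**Figure D3:**
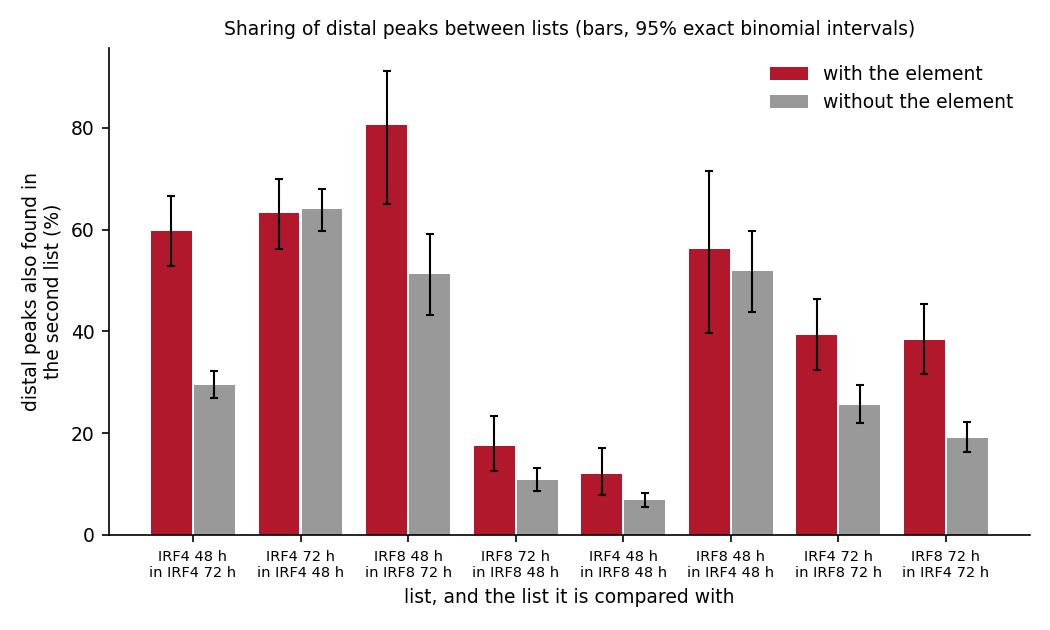
Percent of the distal peaks of a list (first name under each pair of bars) that overlap a peak of a second list (second name), with the element in red and without it in grey; error bars are 95% exact binomial intervals. The red bar is clearly above the grey one for IRF4 48 h in IRF4 72 h (59.8% and 29.5%) and level with it for IRF4 72 h in IRF4 48 h (63.3% and 64.0%).

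Of the member places 19 (3.97%) were in all 4 LPS lists, as were 50 (1.68%) of the other distal places. Here too, a place in more lists had more windows searched. At the Pax5 intron the normalised tags were 76.5 and 92.9 for IRF4 at 48 h and 72 h, and 32.0 and 104.4 for IRF8. The place was also in the GC list, and the IRF8 48 h value is the low one. At Nup160, a nuclear pore gene, the values were 47.1, 74.3, 36.6 and 68.5 in the same order, and at Ndst1, an enzyme of heparan sulphate synthesis, 67.7, 61.1, 45.7 and 78.3. Psmb9, a subunit of the immunoproteasome in the MHC region, had 53.0, 39.8, 22.9 and 39.1. Ripk2, a kinase of innate immune signalling, had 35.3, 31.9, 27.4 and 75. Icosl, the ligand through which B cells stimulate T cells by ICOS, had 38.3, 55.8, 25.1 and 39.1. Atf3, a stress factor, had 32.4, 26.6, 22.9 and 29.4, the lowest set. The other 12 were nearest to 1700048O20Rik, Donson, Gm11140, Hivep2, Inpp5f, Klc1, Pag1, Pamr1, Rere, Scaf8, Ssr2 and Tcof1, with values from 22.9 to 88.1. The Scaf8 place is repeated sequence. Those near Atf3, Donson, Icosl, Inpp5f, Ndst1, Pax5, Rere and Ssr2 were in the GC list too.

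**Figure D4:**
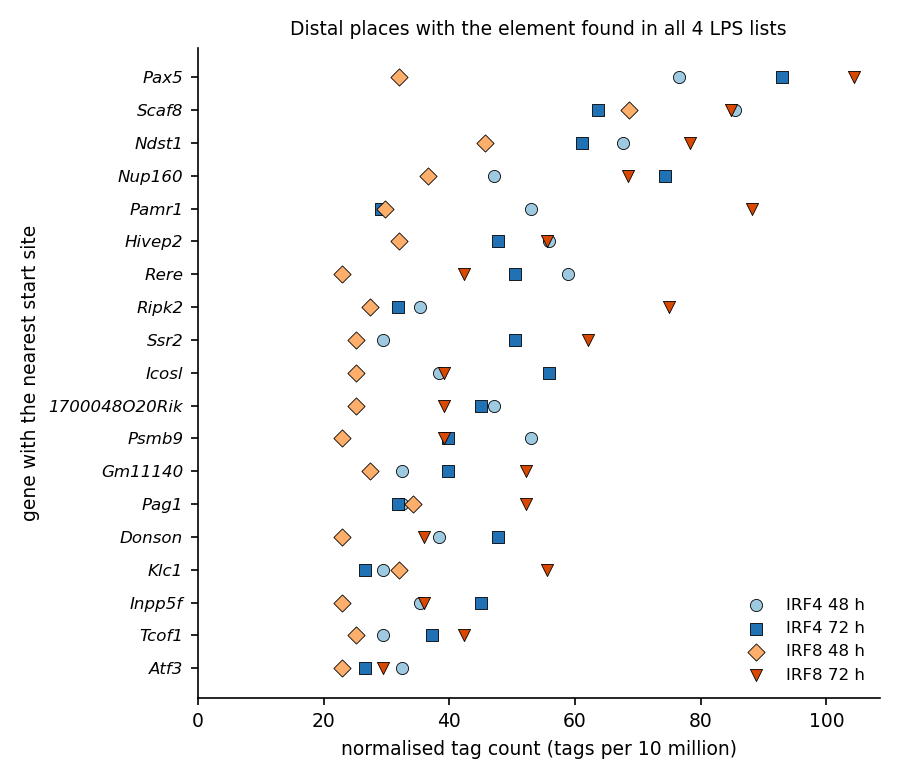
Normalised tag count (x, tags per 10000000) at the 19 member places found in all 4 LPS lists (y, gene with the nearest coding start), 1 symbol per library. IRF8 48 h (light orange diamonds) has the lowest value at most places, and Pax5 at IRF8 72 h has the highest at 104.4.

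Tags at a place were next set side by side between pairs of libraries. Each place in both lists was tested with an exact binomial test, two-sided, on its tag numbers against the library totals, with Benjamini-Hochberg adjustment over all places that the 2 lists share. Such a test compares 2 libraries, not the conditions, and covers counting error only.

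IRF4 tags at members were lower at 72 h than at 48 h at 96 of 136 shared places and higher at 40. The median log2 ratio was -0.29 (interval of the median -0.41 to -0.22), with -0.44 at 346 other distal places. None of the 136 passed in the exact binomial test (13 had an unadjusted p under 0.05), where 0% of all 536 shared places were called higher and 2.61% lower. At the high IRF4 places of 48 h the 72 h values were 69.0 at Gm9034, 66.4 at the Bach2 intron and 53.1 at Il15, none past the test. With the median ratio of distal places set to 1, the median of members was 0.12 and Stk24 (26.5 at 48 h, 74.3 at 72 h) passed as higher (adjusted p = 0.0119, exact binomial test).

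IRF8 tags at members were higher at 72 h at all 36 shared places. The median log2 ratio was 0.77 (0.64 to 0.91), with 0.44 (0.37 to 0.71) at 79 other distal places. Of the 36, 5 were called higher and 0 lower, where 12.3% of all 138 shared places were called higher and 0% lower, so the share of members called (13.9%) was near the background. Pax5 rose from 32.0 to 104.4 tags (3.26-fold, 95% interval 1.69 to 6.62, adjusted p = 0.00442, exact binomial test). Ifnar2 rose from 25.1 to 81.6 (3.24-fold, 1.54 to 7.31) and Pamr1 from 29.7 to 88.1 (2.97-fold, 1.48 to 6.26), both with an adjusted p = 0.0121 in that exact test. Ripk2 rose from 27.4 to 75 and Gm4968 from 36.6 to 91.3. The share of tags in peaks went from 0.18% to 0.52% between these libraries, and its part in the rise was not tested. With the median ratio of distal places set to 1 none of the 5 passed.

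Between the factors at 48 h, IRF4 tags were higher than IRF8 tags at 22 of 26 member places (median log2 ratio 0.53, 0.24 to 0.81), with a median of 0.48 at 81 other distal places. No member passed in the exact binomial test (5 had an unadjusted p under 0.05), where 17.2% of all 122 shared places were called higher in IRF4 and 0.82% lower. The nearest to a call among the places named above was Pax5, with 76.5 IRF4 tags and 32.0 IRF8 tags (adjusted p = 0.0516, exact binomial test). At 72 h IRF4 was higher at 39 and lower at 43 of 82 places, with a median log2 ratio of -0.04 (-0.19 to 0.12). Of these, 1 was called lower in IRF4 and 0 higher, where 0.388% of all 258 shared places were called lower and 0% higher. It was Gm4968, with 23.9 IRF4 tags against 91.3 IRF8 tags (0.262-fold, 0.109 to 0.57, adjusted p = 0.049, exact binomial test), and it did not pass with the median ratio of distal places set to 1. Its window also holds an ISRE, which overlaps the element printed above and shares its IRF half-site. The comparisons share libraries, so the IRF8 72 h value of Gm4968 stands in both of its calls.

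**Figure D5:**
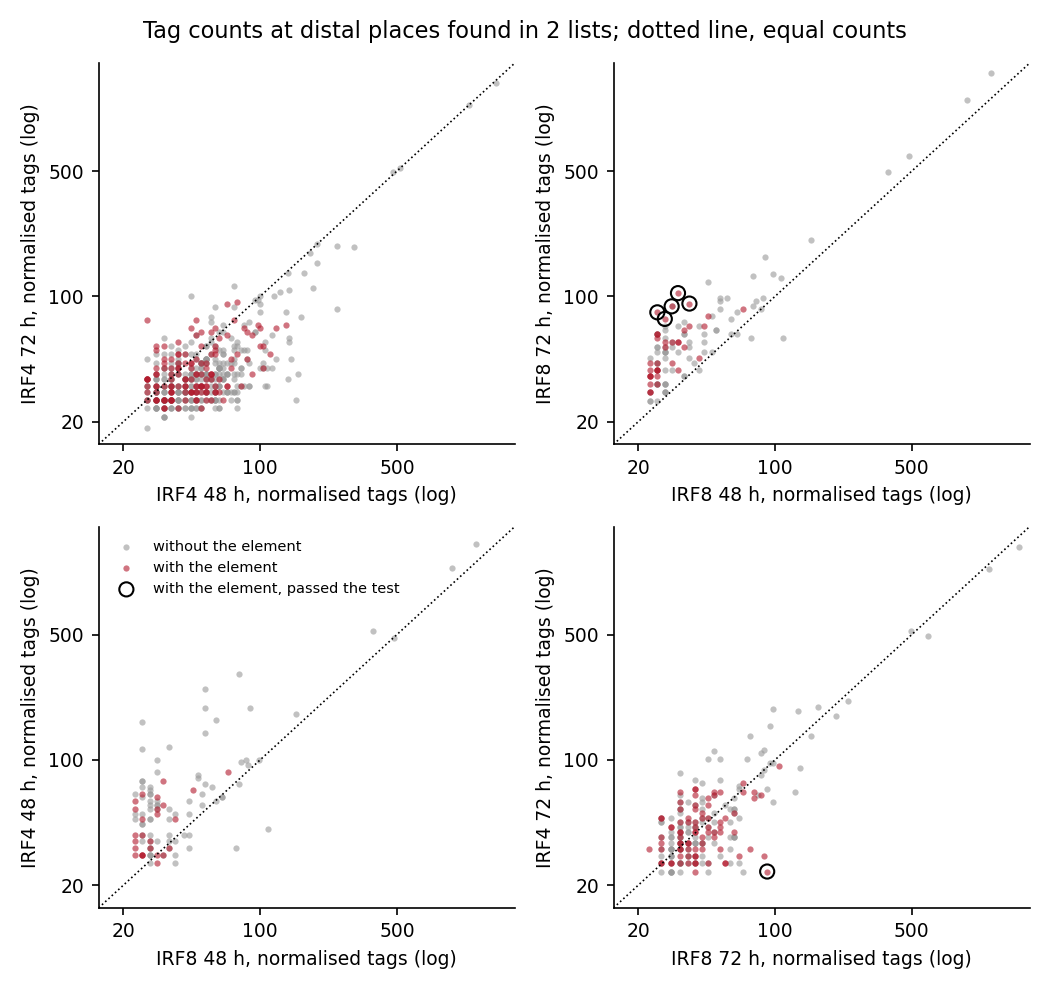
Normalised tags of distal places found in both lists of a pair (both axes log scale), with the element in red and without it in grey; the dotted line marks equal counts and rings mark members that passed the exact binomial test. All 36 red points lie above the line for IRF8 72 h against 48 h, 5 of them ringed, and the red points spread evenly around it for IRF4 against IRF8 at 72 h, with Gm4968 ringed.

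Genes near members were counted from fixed lists, taking the nearest coding TSS within 50 kb; over all protein-coding genes 360 of 22238 (1.62%) had a member. Of 30 B lineage factors 10 (33.3%) had one: Bach2, Ebf1, Ets1, Etv6, Fli1, Irf4, Irf5, Mef2c, Myc and Pax5. The gene lists were chosen with earlier results of these data known, and the same count for distal peaks without the element is not given. The Myc place, 12.3 kb downstream of the growth regulator, carried 64.8 IRF4 tags at 48 h and 25.1 and 35.9 IRF8 tags at 48 h and 72 h, and had no IRF4 peak at 72 h. The intron of Ets1, itself an ETS factor, had 50 IRF4 tags at 48 h and 32.6 IRF8 tags at 72 h. The intron of Fli1, another ETS factor, had 47.1 IRF4 tags at 48 h alone. Both windows also hold an AP-1 motif. Bach2 had a second place, 29.4 kb from its nearest TSS, with 42.4 IRF8 tags at 72 h alone; the high place of the printed window is 58.6 kb from a TSS and outside the limit. The place upstream of Irf4, with the spacer CC shown above, had 29.4 IRF4 tags at 48 h and 26.1 IRF8 tags at 72 h. Etv6 was in the GC list alone.

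Of 36 genes of B cell receptor signalling 6 (16.7%) had a member. Inpp5d, the phosphatase SHIP1 that dampens the receptor, had 70.7 and 45.1 IRF4 tags at 48 h and 72 h and 52.2 IRF8 tags at 72 h, and was in the GC list. Lyn, a kinase that starts the signal, had 78.3 IRF8 tags at 72 h, in repeated sequence. Plcg2, the phospholipase of the pathway, had 55.5 IRF8 tags at 72 h and was in the GC list, as was Pik3ap1, an adaptor for PI3 kinase, with 29.4. The adaptor Grb2 had 41.2 and 26.6 IRF4 tags and no IRF8 peak, and Vav2, an exchange factor, 31.9 IRF4 tags at 72 h.

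The other lists held few. Of 25 germinal centre and activation genes 3 had a member: Icosl, the BAFF receptor Tnfrsf13c (50 and 37.2 IRF4 tags, no IRF8 peak) and the chemokine receptor Cxcr4 (26.6 IRF4 tags at 72 h). Of 12 plasma cell genes there were 2, Irf4 and the elongation factor Ell2 (47.8 IRF4 tags at 72 h, with an AP-1 motif in the window). Of 10 MHC class II genes Cd74, the invariant chain, had 35.9 IRF8 tags at 72 h and a GC interval. Of 23 Toll-like receptor and NF-kappaB genes Tlr1 had 29.4 IRF8 tags at 72 h. Among immunoglobulin genes, the kappa place printed above carried 58.9 and 47.8 IRF4 tags and 45.7 IRF8 tags at 72 h, with no peak in the IRF8 48 h and GC lists. None of 14 apoptosis genes or 11 T cell genes had a member within the limit. Beyond 50 kb, Bcl2 was the nearest gene of a member place with 38.3 and 47.8 IRF4 tags at 48 h and 72 h. Member places beyond the limit were also nearest to Bcl6, Prdm1 and Nfkbiz of the lists above. Of 10 macrophage and dendritic cell genes Mpeg1 was the nearest to 1 member, which lies in an intron of Dtx4 (29.4 IRF4 tags at 48 h). The counts are of nearest genes with no test of enrichment, and the genes differ in how much sequence lies around them.

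Most members lay in introns or intergenic sequence. Introns held 44.0% and 48.2% of IRF4 members at 48 h and 72 h, 56.1% and 52.9% of IRF8 members, and 45.5% of GC members. The median distance to a coding TSS was 16.3, 15.6, 12.2, 14.1 and 14.8 kb in that order, against 20.0, 20.2, 24.3, 23.7 and 18 kb for the distal peaks without the element. Within 50 kb, 12 genes had 2 member places and Ly6e, an interferon-induced surface protein, had 3.

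In the GC list 45 of 112 members (40.2%, 31 to 49.9) lay in a peak of some LPS list, against 20.0% (17.8 to 22.3) of its other distal intervals. The IRF8 72 h list held 34 of them (30.4%, 22.0 to 39.8; others 10.5%), and the IRF4 lists at 48 h and 72 h held 23 and 24 (20.5% and 21.4%; others 11.9% and 9.25%). The elements of GC members in an LPS peak and of those in the GC list alone are given side by side, with no test between them. At the 67 places in the GC list alone the spacer CT was seen 0 times, which allows a share of up to 4.48%, and GT 10 times (14.9%, 7.4 to 25.7). Genome matches held CT in 3.62% and GT in 9.76% of cases. Both values lie within these limits, so the counts at the 67 places do not show a lack of CT against the genome. An ISRE was in 35 of these windows (52.2%, 39.7 to 64.6), more than 1 element in 14 (20.9%) and repeated sequence in 20 (29.9%). Among the 45 GC members in an LPS peak, read from their own GC window, CT was seen 10 times (22.2%, 11.2 to 37.1) and GT 20 times (44.4%, 29.6 to 60), and an ISRE was in 4 windows (8.89%, 2.48 to 21.2). This split of the GC members was chosen after the data were seen. There were 90 places in the GC list and an LPS list, but at the other 45 the element lay in the LPS window alone. At the 47 places in the GC list alone and outside repeated sequence CT was also seen 0 times and GT 10 times (21.3%, 10.7 to 35.7), and an ISRE was in 16 windows (34%, 20.9 to 49.3). The interval for GT at these 47 places lay above the 9.76% of genome matches.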

How the data were processed

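The members and the gene lists were chosen with earlier results of these data known. The authors called the LPS peaks with HOMER findPeaks, per the file headers: peaks of 500 bp at least 1000 bp apart, 1 tag kept per position at most, an FDR of 0.001, and a fold of 4 and a Poisson p-value of 1e-04 over the local 10000 bp, with no control named. The deposited normalised tag count is a signal, tags scaled by the authors to 10000000 per library; undoing this scale gave whole tag numbers within 0.05 for every peak. The deposited focus ratio (a fraction) and fold over the local region (a ratio) were read and used in no test. The design text names MACS for the GC list, which gives positions only; which version and threshold, and whether a control was used, is not given in the sources used here. BWA and Bowtie2 stand in the submitters' processing notes, without saying which library each aligned. Coordinates are mm9.

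Genes and TSS came from GENCODE M1, and windows from the NCBIM37 assembly, with Python 3.11.15, numpy 2.4.6, pandas 2.3.3, scipy 1.17.1 and matplotlib 3.10.9. Intervals of different lists that overlapped by 1 bp or more formed a place, whose position is that of 1 of its intervals. Intervals on unplaced sequence (9, 12, 8, 11 and 0 in the order of the report) and 1 incomplete window in the IRF8 72 h list were left out. A pair of peaks counted as a member place when at least 1 of them was a member. Shares have Clopper-Pearson intervals and medians order-statistic intervals at 95%, tag counts exact Poisson intervals; tags are not independent molecules, so all cover counting error only. A count of 0 is given with the share that 3 counts would make. The binomial test was tested on simulated counts. The motif search and the overlaps were each checked against a second count on the deposited intervals. Named places were the 5 highest single-copy members of each LPS list, those in all 4 LPS lists, those called in a pair, and up to 5 per gene list. Stk24, Sema4b, Etv6, Pik3ap1, Ly6e, Bcl2, Bcl6, Prdm1 and Nfkbiz, and which sequences to print, were chosen after their values were seen.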

Additional observations from a re-analysis of the deposited data

Results flagged for a closer look

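At member places the change from 48 h to 72 h went opposite ways for the 2 factors when tags were scaled to the library totals. The median log2 ratio of 72 h to 48 h was -0.29 for IRF4 over 136 places and 0.77 for IRF8 over 36 places. With 1 library in each group the difference was not tested. The share of all tags in peaks moved the same way, from 0.82% to 0.45% for IRF4 and from 0.18% to 0.52% for IRF8, and its part was not tested. The other distal places had medians of -0.44 and 0.44, so the opposite directions were not particular to members. With the median ratio of distal places set to 1, the medians at member places were 0.12 for IRF4 and 0.13 for IRF8, both positive.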

How the results depend on the processing

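No paired analysis was possible because each group held 1 library. Of 109 alternatives 84 stayed within the interval of the value or within 1.5 times the count. Searching 50 bp around the centre gave members in 10.9% (IRF4 48 h), 19.1% (IRF4 72 h), 17.8% (IRF8 72 h) and 4.17% (GC, 56 members) of distal peaks. Searching the whole interval gave 19.1%, 31.1%, 24.6% and 25.3% (GC, 340 members, where intervals are wider). A spacer ending in T gave 11.9%, 21.0%, 16.7% and 3.87% (GC, 52 members). A minimum of 32.6 normalised tags left 85 members in the IRF4 72 h list, 6 in the IRF8 48 h list (9.84% of 61 distal peaks) and 28.1% of distal peaks in the IRF8 72 h list. With the median ratio of distal places set to 1, the median log2 ratio at members was 0.12 for IRF4 over time, where the sign turned and 1 place passed, 0.13 for IRF8 over time with 0 passing, and 0.0493 for IRF4 over IRF8 at 48 h; at 72 h 0 places passed. The cause was not tested. A wider distal limit, gene starts only, a larger overlap, both peaks as members and leaving out repeated sequence moved none of these values beyond their intervals. Depth limits the tests: a member rested on a median of 11 to 14 tags.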
